A study of Mus musculus with 12 samples.

Results

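The mouse glandular kallikreins described here are Klk1, 6 of its Klk1b copies (Klk1b9, Klk1b11, Klk1b21, Klk1b24, Klk1b26 and Klk1b27) and Klk15, measured in cultured mouse prostate cells. These 8 genes were taken by their annotated symbols, out of 19031 genes with a probe named by 1 symbol, and 16 of 45135 probes carried their names. The genes were chosen by their spheroid minus adherent differences in earlier results of the same arrays, so those differences are given below as a description and carry no test. Gene expression was measured on Illumina bead arrays, on which a probe's brightness reports the abundance of its transcript. The samples were murine prostate stem cells of strain C57Bl/6, grown either as an adherent monolayer or in spheroid culture, where the cells gather in balls. Each of 3 cultures (adherent from mouse 1, adherent from mouse 2, spheroid from mouse 1) was measured on 3 replicate arrays and on 1 array with the pooled replicates, 12 arrays in all. The labels name no treatment, genetic change or age, and do not say whether the replicates were separate cultures, so the p-values cover the spread of these samples alone, and that spread may be technical. There was a single spheroid culture, from a mouse that also gave 1 of the adherent cultures.

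Tissue kallikreins are secreted serine proteases. Klk1, the enzyme the family is named for, releases kinins from kininogens, and kinins widen blood vessels and move salt and water through their receptors. The Klk1b genes are copies of Klk1 that arose in rodents; they are best known from the mouse submandibular gland, where androgens raise several of them, and some of their products bind or cut growth factors such as EGF. In humans the same locus holds the genes of prostate-specific antigen and of its close relative KLK2, both made by prostate luminal cells under androgen control.

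The genes lie side by side on chromosome 7. In the RefSeq annotation of GRCm38.p6 the stretch from Klk15 to Klk1 held 25 genes, 15 protein-coding and 10 pseudogenes, and the RefSeq record of Klk1b21 reached over those of Klk1b26 and Klk1b27. All 8 genes had a RefSeq promoter window of 300 bases, 250 before and 50 after the annotated start. Part of each window is shown, so that the Klk1b copies can be compared. For the Klk1b genes it runs from 90 bases before to 13 bases after the letters gaatgag. For Klk15 it ends 13 bases after TATAAA, and for Klk1 it is the 100 bases before the start. The Klk1 and Klk15 pieces were not placed by gaatgag, so they do not line up with the Klk1b pieces. All are on the plus strand of GRCm38.p6, and capitals mark TTTAAA or, in Klk15, TATAAA.
Klk1 at chr7:44225260-44225359: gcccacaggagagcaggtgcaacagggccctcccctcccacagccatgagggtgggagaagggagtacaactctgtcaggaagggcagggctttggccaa
Klk1b9 at chr7:43975927-43976036: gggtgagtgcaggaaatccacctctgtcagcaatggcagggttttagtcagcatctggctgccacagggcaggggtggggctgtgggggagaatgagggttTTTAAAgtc
Klk1b26 at chr7:44012551-44012660: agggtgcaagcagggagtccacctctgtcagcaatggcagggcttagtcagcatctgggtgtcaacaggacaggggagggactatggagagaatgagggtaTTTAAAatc
Klk1b21 at chr7:44102196-44102305: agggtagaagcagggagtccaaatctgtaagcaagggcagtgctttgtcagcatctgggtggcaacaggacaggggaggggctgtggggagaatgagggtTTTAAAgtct
Klk1b24 at chr7:44188105-44188214: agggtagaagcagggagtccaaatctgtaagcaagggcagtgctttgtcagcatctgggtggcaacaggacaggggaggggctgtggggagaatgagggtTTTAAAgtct
Klk1b27 at chr7:44052172-44052281: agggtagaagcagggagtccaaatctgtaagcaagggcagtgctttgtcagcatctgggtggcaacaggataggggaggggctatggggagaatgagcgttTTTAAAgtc
Klk1b11 at chr7:43995736-43995845: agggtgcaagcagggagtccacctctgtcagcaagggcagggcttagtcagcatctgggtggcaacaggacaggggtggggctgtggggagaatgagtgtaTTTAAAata
Klk15 at chr7:43931554-43931663: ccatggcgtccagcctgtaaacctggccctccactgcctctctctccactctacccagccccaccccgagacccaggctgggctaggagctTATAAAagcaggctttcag

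The 110 bases shown for Klk1b21 and Klk1b24 were identical (0 different bases). RefSeq places the start of Klk1b21 inside this stretch and that of Klk1b24 past its end. The stretch shown for Klk1b27 differed from both at 8 bases. Klk1b11 and Klk1b26 also differed from each other at 8. Compared base by base with no gaps, Klk1b9 differed from each of the other 5 at 48 to 52 bases, a count that also takes in any shift between the sequences. With gaps allowed, Klk1b9 was 82% to 85.8% identical to these 5 where the windows overlapped. Gaps at the ends of the windows were free and not counted, so the percentages cover the aligned columns between them. The 6 Klk1b members were 81.7% to 97.7% identical (median 83.8%, 15 pairs, 257 to 302 columns). The highest value was that of Klk1b21 with Klk1b24 (265 columns). Klk1 was 78.7% to 85.7% identical to the 6 Klk1b members (median 80%, 6 pairs, 211 to 260 columns). Klk15 matched the others at 47.5% to 51.6% (7 pairs, 318 to 340 columns).

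**Figure D1:**
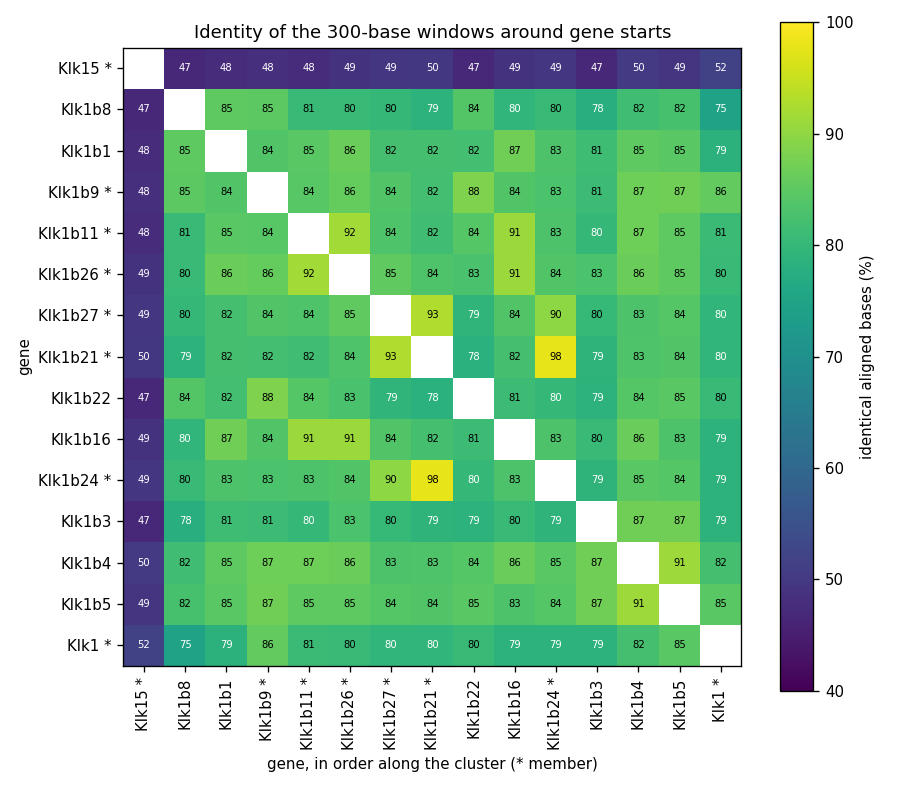
Percent of identical aligned bases between the 300-base windows around the annotated starts of 15 kallikrein genes, in gene order along the cluster on both axes, with stars at the 8 described here. The Klk15 row stands apart (47.5% to 51.6% against the other 7 described here), and the brightest cell is Klk1b21 with Klk1b24 at 97.7%.

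The letters TTTAAA, which read the same on both strands and overlapped no other motif searched in these genes, were in the windows of all 6 Klk1b members and of 7 of 7 other Klk1b genes, against 13.2% of 32851 mouse windows. In 5 members they began between positions -40 and -17 counted from the annotated start, and in Klk1b21 at position 5 after it. TATAAA, the TATA-box letters, was found on either strand in Klk15 alone among the 8 (13.6% of windows), and neither was in the Klk1 window. That window lined up with those of the 6 Klk1b members over 211 to 260 aligned columns, so it does not cover the same stretch. Bases past its end were not searched. The hexamer AGAACA, part of the steroid hormone response element, was in the window of Klk1b24 alone among the 8 and of 1 of 7 other Klk1b genes (19% of windows). The longer form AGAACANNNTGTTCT was in 0 of the 8 and in 0.00913% of windows. These are matches of letters in a short window and not measured binding sites.

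In the spheroid culture, 14 of the 16 probes were detected on all 3 replicate arrays, whereas 8 were undetected on all 6 adherent replicate arrays (a probe counted as detected at a detection p under 0.05). A passing filter of detection on all 3 arrays of at least 1 culture left 15 probes, and the one that did not pass was a Klk1b9 probe. Of the 15, 12 probes of 7 genes were at least 2-fold higher in spheroids than in both adherent cultures, by 1.16 to 4.57 on the log2 scale, and none was 2-fold lower; over all 18950 tested probes 11.5% were that much higher. The same number, 12, had every spheroid array above every adherent array, against 22.6% of all tested probes. Against adherent mouse 1 alone and against adherent mouse 2 alone there were again 12 (11.7% of all tested probes in each). The median difference of the 15 was 1.99, beside -0.07 over all tested probes. Because passing only through the spheroid arrays favours probes that are higher there, and because these genes were picked for this difference, nothing is read from those shares.

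**Figure D2:**
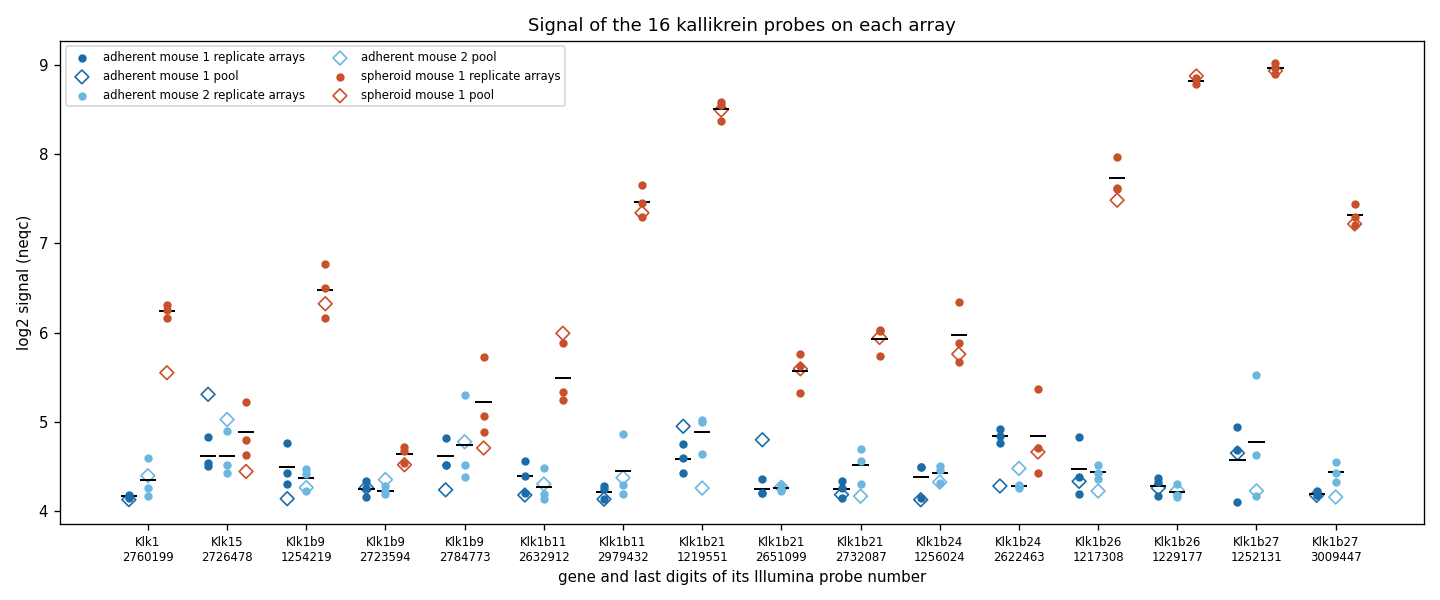
Log2 signal after neqc (vertical axis) of each of the 16 probes on every array, with replicate arrays as points, their mean as a bar and pools as open diamonds, for adherent mouse 1, adherent mouse 2 and spheroid mouse 1. For 12 of the 15 probes that passed the detection filter, and for the Klk1b9 probe that did not, the 3 spheroid points lie above all 6 adherent points; Klk15, 1 probe of Klk1b24 and 1 probe of Klk1b9 overlap.

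Klk1 itself, the kininogen-cleaving enzyme, was represented by 1 probe, ILMN_2760199. Its log2 signal after background correction and normalization (neqc) was 4.18, 4.14 and 4.17 on the adherent mouse 1 arrays, 4.60, 4.26 and 4.17 on those of adherent mouse 2, and 6.16, 6.26 and 6.31 on the spheroid arrays. All spheroid arrays were higher than every adherent array, and of the adherent arrays only replicate 1 of mouse 2 was called detected. The difference from both adherent cultures was 1.99 ± 0.15 (SE, 9 arrays). Against adherent mouse 1, where Klk1 was not well above background on any array, it was at least 3.37-fold higher. Here and below, such a bound counts the dim side on each array as its own value or the lowest detected signal, whichever is higher. Each bound holds for the neqc values alone, since the size of the differences changed with the processing, as given further on. In bulk RNA, fewer cells of a type and less RNA per cell cannot be told apart.

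Klk1b26 and Klk1b9 belong to the copies first named for their handling of other proteins. RefSeq lists Klk1b26 under the older names Egfbp2 and PRECE-2, for EGF binding and prorenin conversion, and Klk1b9 under EGF-BP C. For Klk1b26, the log2 signal of probe ILMN_1229177 was 4.33, 4.17 and 4.37 in adherent mouse 1, 4.31, 4.16 and 4.18 in adherent mouse 2, and 8.78, 8.84 and 8.85 in spheroids. It was undetected on every adherent replicate array and lay well above them on every spheroid array. On the scanner's linear scale the same arrays read 127, 127 and 141, then 133, 130 and 132, then 443, 471 and 512. The log2 difference was 4.57 ± 0.14 (SE, 9 arrays), and the signal was at least 20.1-fold higher than in the adherent cultures. The second Klk1b26 probe, ILMN_1217308, was 3.28 ± 0.18 higher, and against adherent mouse 2 the bound was at least 9.35-fold; it was detected on 1 array of adherent mouse 1. Both probes of this gene thus separated the spheroid arrays from the rest.

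The Klk1b9 probes differed from each other. The log2 signal of probe ILMN_1254219 was 4.30, 4.77 and 4.43 in adherent mouse 1, 4.42, 4.47 and 4.23 in adherent mouse 2, and 6.77, 6.17 and 6.497 in spheroids, a log2 difference of 2.04 ± 0.18. The log2 signal of probe ILMN_2784773 was 4.51, 4.51 and 4.82, then 5.30, 4.52 and 4.39, then 4.89, 5.06 and 5.73, and its spheroid values overlapped those of adherent mouse 2, with a difference of 0.55 ± 0.24. The third, ILMN_2723594, was detected on 1 of 3 spheroid arrays and on none of the 6 adherent arrays, and did not enter the fit.

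Klk1b21, Klk1b24 and Klk1b27 encode proteases described in Leydig cells of the mouse testis, where Klk1b21 was found to cut fibronectin and an IGF-binding protein. For Klk1b27, the log2 signal of probe ILMN_1252131 was 4.10, 4.95 and 4.68 in adherent mouse 1, 5.53, 4.17 and 4.63 in adherent mouse 2, and 9.03, 8.90 and 8.96 in spheroids. The adherent arrays scattered over more than a log2 unit near background, with 2 of 3 detected in mouse 1 and 1 of 3 in mouse 2, while the spheroid arrays were close together and far above them. Its difference was 4.29 ± 0.26 (SE, 9 arrays), the widest error among the 15 probes. The other probe, ILMN_3009447, was undetected in both adherent cultures, and was 3.00 ± 0.15 higher and at least 7.02-fold higher in spheroids.

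For Klk1b21, the log2 signal of probe ILMN_1219551 was 4.75, 4.59 and 4.42 in adherent mouse 1, 4.64, 4.998 and 5.02 in adherent mouse 2, and 8.37, 8.58 and 8.55 in spheroids. It was the only probe of the 16 detected on all 3 arrays of adherent mouse 2, and the spheroid arrays stood 3.76 ± 0.16 above the adherent ones (13.6-fold). The other Klk1b21 probes, ILMN_2732087 and ILMN_2651099, were undetected in both adherent cultures and were 1.54 ± 0.16 and 1.31 ± 0.15 higher in spheroids, which is at least 2.62-fold and at least 2.097-fold.

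The Klk1b24 probes differed in where they were detected. The log2 signal of ILMN_1256024 was 4.49, 4.49 and 4.15 in adherent mouse 1, 4.46, 4.50 and 4.31 in adherent mouse 2, and 5.67, 5.89 and 6.35 in spheroids, with a difference of 1.57 ± 0.18 (at least 2.77-fold). The log2 signal of ILMN_2622463 was 4.92, 4.77 and 4.84, then 4.25, 4.29 and 4.29, then 4.43, 4.71 and 5.37. This probe was detected on all 3 arrays of adherent mouse 1 and on none of adherent mouse 2, and the spheroid arrays overlapped those of adherent mouse 1. Its difference was -0.01 against adherent mouse 1 and 0.56 against adherent mouse 2. In the pools the adherent order was the other way, with 4.28 for mouse 1 and 4.48 for mouse 2, both undetected.

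Klk1b11, another protease of the group, had 2 probes that were undetected on all 6 adherent arrays. The log2 signal of probe ILMN_2979432 was 4.28, 4.24 and 4.13 in adherent mouse 1, 4.86, 4.29 and 4.19 in adherent mouse 2, and 7.45, 7.29 and 7.65 in spheroids, a difference of 3.13 ± 0.18 and at least 7.497-fold. Probe ILMN_2632912 was 1.16 ± 0.18 higher, the smallest of the 12 differences past 2-fold, and at least 1.97-fold; without spheroid replicate 1, whose value of 5.89 was above the 5.24 and 5.33 of the other spheroid arrays, the difference was 0.96 and 11 probes were past 2-fold.

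Klk15, whose human counterpart can activate the precursor of prostate-specific antigen, was the exception among the 8 genes. The log2 signal of probe ILMN_2726478 was 4.83, 4.51 and 4.54 in adherent mouse 1, 4.42, 4.52 and 4.90 in adherent mouse 2, and 4.80, 5.23 and 4.62 in spheroids. The 3 cultures overlapped, and although the probe was detected on all 3 spheroid arrays and on 1 array of each adherent culture, the difference was 0.27 ± 0.18. In the pools the order was the other way, with 5.31 and 5.03 in the adherent pools and 4.44 in the spheroid pool.

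Probes of one gene did not give one value. All 6 Klk1b genes had more than 1 passing probe, and the gap between a gene's highest and lowest log2 difference ran from 1.29 (Klk1b27) to 2.45 (Klk1b21). The files used here hold no probe sequences, so whether a probe also reports a neighbouring copy could not be checked, and a sum over several Klk1b transcripts was not tested.

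**Figure D3:**
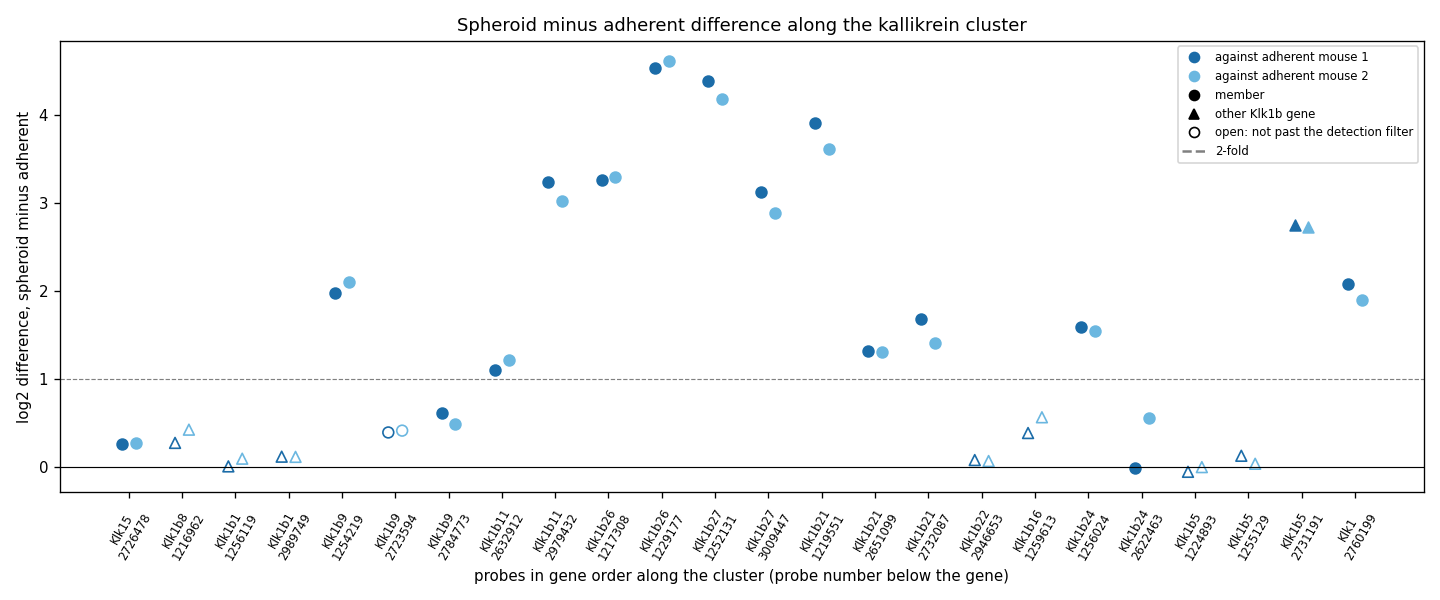
Log2 difference of spheroid minus adherent culture (vertical axis) for each probe of the cluster, with genes in order along chromosome 7 from Klk15 to Klk1, against adherent mouse 1 (dark) and adherent mouse 2 (light). Circles are the 8 genes, triangles other Klk1b genes, and open symbols probes that did not pass the detection filter; the dashed line is 2-fold. The highest points belong to Klk1b26, Klk1b27 and Klk1b21, which lie next to each other among the probed genes.

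The cluster holds 7 other Klk1b genes, of which Klk1b3 and Klk1b4 had no probe named here. Klk1b1 (2 probes) and Klk1b22 (the EGF-binding protein A of RefSeq's older names) were undetected on all 9 replicate arrays, Klk1b16 was detected on 1 spheroid array, and Klk1b8 on 1 array of adherent mouse 1 and 2 spheroid arrays. Klk1b5 was split: 2 of its 3 probes were undetected on all 9 replicate arrays, and ILMN_2731191 had a difference of 2.74 ± 0.16, at least 5.39-fold. That probe passed the filter through its spheroid arrays alone, which favours probes that are higher there, so its test is not given. In the authors' normalized table (0.9974) and without background correction (0.86) its difference was under 2-fold.

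The pool arrays, which hold RNA of the same replicates and are no further samples, gave the same picture for most probes. Of the 12 probes past 2-fold, 11 were at least 2-fold higher in the spheroid pool than in each adherent pool. The exception was Klk1b21 ILMN_2651099, with 5.59 in the spheroid pool, 4.80 in the adherent mouse 1 pool and 4.27 in the adherent mouse 2 pool. For Klk1 the spheroid pool read 5.55, below all 3 spheroid replicates, against 4.13 and 4.40 in the adherent pools.

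The difference between the adherent cultures of mouse 1 and mouse 2 was tested. It is not the contrast that chose the genes, but the adherent values entered that choice as its low side, and 8 of the 16 probes were undetected on all 6 adherent arrays. None of the 15 probes differed at an adjusted p under 0.05 with at least a 2-fold change (0 calls by limma; 1 at an unadjusted p under 0.05), while 2.11% of all tested probes were called and 25.4% had an unadjusted p under 0.05. Adjusted p-values of the 15 ran from 0.132 to 0.997. The lowest was that of Klk1b24 ILMN_2622463, which was 0.57 lower in mouse 2 on the log2 scale (95% interval of the difference -1.05 to -0.08), with all 3 arrays of mouse 2 below all 3 of mouse 1. The adherent pools had this probe in the other order, with 4.28 for mouse 1 and 4.48 for mouse 2. The largest positive difference was that of Klk1b21 ILMN_1219551, at 0.30 (95% interval -0.09 to 0.69, adjusted p = 0.335). For Klk1 it was 0.18 (-0.21 to 0.56), for Klk1b26 ILMN_1229177 -0.07 (-0.43 to 0.28), and for Klk15 -0.01 (-0.47 to 0.45). These probes were mostly below detection in both cultures, so their intervals bound the change of signal and not that of transcript.

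The size of the spheroid difference changed with the processing, while its sign did not. All 15 passing probes were above 0 with median scaling (0.22 to 4.19), cyclic loess (0.22 to 4.50), an offset of 50 (0.12 to 3.20), the authors' normalized table (0.07 to 2.29) and no background correction (0.05 to 2.02). The number past 2-fold was 12, 12, 8, 6 and 5 in that order. In the authors' deposited normalized values, which are linear, Klk1b26 ILMN_1229177 stood at 597, 619 and 626 in spheroids and at 109 to 123 in the adherent replicates. Klk1 stood there at 178, 183 and 188 in spheroids and at 108 to 127 in the adherent replicates, so the groups did not overlap but the ratio was smaller. With median scaling the median of all tested probes was -0.32, so a difference of the 15 on that scale (median 1.76) is relative to a lower centre.

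**Figure D4:**
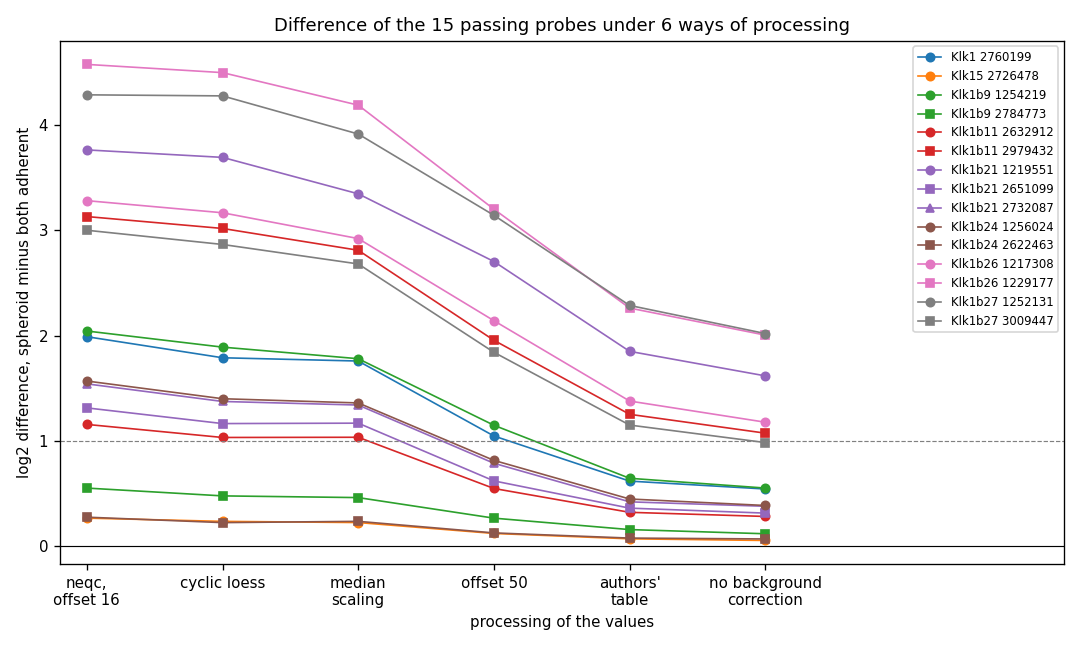
Log2 difference of spheroid minus both adherent cultures (vertical axis) of the 15 passing probes under 6 ways of processing, with 1 colour per gene and 1 marker shape per probe; lines join the values of a probe and the dashed line is 2-fold. The highest value is 4.57 with neqc and 2.02 without background correction, and every probe stays above 0.

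The genes nearest in array profile are given as a description. Likeness was taken as the root mean square difference between profiles over the 9 replicate arrays, each centred on its own mean. For Klk1 the nearest genes were Grina (0.08), Anxa1 (annexin A1, a phospholipid-binding protein; 0.09) and Slc8b1 (a mitochondrial calcium exchanger; 0.11). For Klk1b26 ILMN_1229177 they were Sult1a1 (a phenol sulfotransferase; 0.08), Tsc22d3 (a glucocorticoid-induced leucine zipper protein; 0.10) and Gdpd1 (0.13). For Klk1b21 ILMN_1219551 they were Tjp3 (a tight junction scaffold; 0.15), Cldn23 (a claudin; 0.16) and Tnip1 (0.18), and for Klk1b27 ILMN_1252131 Prune2 (0.25), Id1 (0.28) and Chchd10 (0.30). The 9 arrays share their culture groups and their normalization, and near genes had about the same spheroid difference. For Klk1b26 ILMN_1229177, at 4.57, those of Sult1a1, Tsc22d3 and Gdpd1 were 4.71, 4.57 and 4.72. The kallikreins were chosen by that difference, so no link to these genes is read from the likeness. For Klk15, whose cultures overlapped, the nearest were Otop2 (0.11), Kcnq1 (0.12) and Dnajb12 (0.12).

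Genes that act with or on the kallikreins were read from lists of known function, each gene by its brightest passing probe; 13.1% of 10112 tested genes were called higher in spheroids and 13.4% lower, with a median difference of -0.06. A call needed a limma adjusted p under 0.05 and a 2-fold change. The lists were chosen with earlier results of these arrays known. Of 20 listed genes called higher, 7 had passed the filter through their spheroid arrays alone, which favours genes that are higher there. These 7 are given by value, with no test, and 13 had passed through an adherent culture. Among all genes that passed through an adherent culture, 11.6% of 9384 were called higher. The other tissue kallikreins, neighbours of the Klk1 group that process proteins of skin and other epithelia, had 8 of 11 genes tested, of which 6 were called higher and 0 lower (median 3.20); of the 4 that passed through an adherent culture, 3 were. Klk10 rose by 5.56 ± 0.24 (adjusted p = 2.2e-10), Klk8, also called neuropsin, by 5.18 ± 0.13 (1.83e-12) and Klk7 by 2.71, which was not called without background correction (0.95). Klk6, at 0.92, was not called. Klk14 (4.74 ± 0.19; at least 23.6-fold), Klk13 (3.70 ± 0.18), Klk11 (1.85) and Klk9 (0.67) passed through the spheroid arrays alone. Klk11 was under 2-fold in the authors' normalized table (0.59) and with an offset of 50 (0.93).

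Of the kinin system, which lies downstream of Klk1, 6 of 18 listed genes were tested, and 2 were called higher and 0 lower (median 0.42); of the 5 that passed through an adherent culture, 1 was. This was Cpm (carboxypeptidase M, a membrane enzyme that trims kinins), which rose by 3.998 ± 0.15 (adjusted p = 7.44e-11). Cpn1 (a subunit of plasma carboxypeptidase N), which passed through the spheroid arrays alone, had a difference of 1.94 ± 0.17, and of 0.60 in the authors' normalized table. The kininogen genes Kng1 and Kng2, the substrates of Klk1, and the receptor gene Bdkrb2 did not pass the detection filter. The kinin receptor gene Bdkrb1 had a difference of 0.15 and was not called. Of the growth factors and receptors, Egf did not pass the filter, and Ngfr (-0.46) was not called. Egfr, the receptor of EGF, was not called by its brightest probe (0.50), while 2 of its 6 passing probes were called higher, at 1.16 and 1.36.

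Among 13 listed protease inhibitors, 4 were tested, and 2 rose and 0 fell (median 0.96). Spink5, the inhibitor LEKTI that restrains kallikreins in skin, rose by 2.45 ± 0.22 (adjusted p = 3.35e-07), and was not called without background correction (0.86). Spint1, a membrane inhibitor of serine proteases, rose by 1.75 ± 0.08 (2.9e-10). Of the epithelial sodium channel, which extracellular serine proteases can activate by cutting, the subunit gene Scnn1a rose by 3.15 ± 0.18 (adjusted p = 3.46e-09). The other 2 subunit genes passed through the spheroid arrays alone: Scnn1g had a difference of 3.91 ± 0.15 (at least 13.1-fold) and Scnn1b of 2.50 ± 0.14 (at least 4.83-fold). Scnn1b was under 2-fold in the authors' normalized table (0.83) and without background correction (0.73). Their list had 4 genes tested, 3 called higher, 0 lower and a median of 2.83, with Atp12a at 0.17; Scnn1a was the 1 gene that passed through an adherent culture.

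Genes that respond to androgen or glucocorticoid, hormones known to control several kallikrein genes, had 8 of 16 listed genes tested, of which 6 rose and 0 fell (median 1.72). Fkbp5, a co-chaperone of steroid receptors, rose by 5.43 ± 0.13 (adjusted p = 9.1e-13), Tsc22d3 by 4.57 ± 0.10 (5.22e-13), Tmprss2, a membrane serine protease, by 2.58 ± 0.17 (2.21e-08) and Per1, a circadian clock gene, by 2.09 ± 0.11 (2.13e-09). The other 2 called, Zbtb16 (1.34) and the acid phosphatase gene Acpp (1.19), were not called in the authors' normalized table (0.44 and 0.94) or without background correction (0.39 and 0.89). Zbtb16 was also not called with an offset of 50 (0.83), nor Acpp with median scaling (0.68). These Acpp values are of its brightest probe, and its other passing probes were also called higher, at 3.02 and 1.84. Several of these genes answer to both hormones. The prostate-specific targets Pbsn and Msmb did not pass the detection filter. No hormone was measured.

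**Figure D5:**
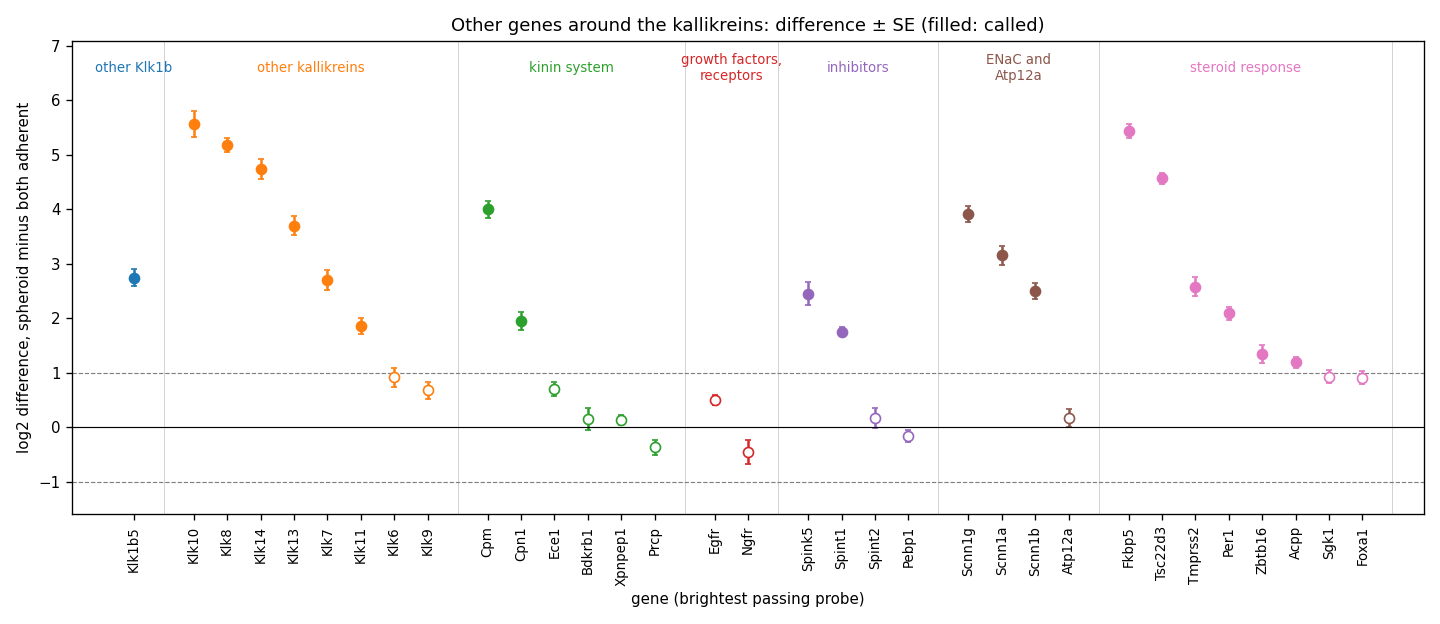
Log2 difference of spheroid minus both adherent cultures (vertical axis, points with SE over 9 arrays) for each tested gene of 7 lists around the kallikreins; filled points were called (adjusted p under 0.05 and at least 2-fold) and dashed lines mark 2-fold. Of these genes 20 were called, all higher and 7 of them after passing the filter through the spheroid arrays alone, from Klk10 at 5.56 and Fkbp5 at 5.43 down to Acpp at 1.19.

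Marker genes checked the labelled cell type. The basal prostate markers Krt5, Krt14, Trp63 and Itga6 were detected on every array, with a list mean of 11.1 to 11.5 on the log2 scale over the 9 replicate arrays, and none of the 4 was called between spheroid and adherent culture (Trp63, at -0.56, was past 2-fold with median scaling, at -1.06). Of the luminal keratins, Krt19 rose by 5.78 ± 0.15 (adjusted p = 1.65e-12) and Krt18 fell by 1.42 on the log2 scale (2.2e-08), with Krt8 at -0.96 and not called (-1.44 and called with median scaling). The luminal list mean was 8.94 to 9.19 in adherent mouse 1, 10.3 to 10.5 in adherent mouse 2 and 10.8 to 10.9 in spheroids. The list's median difference was -0.96, so its higher mean in spheroids came with Krt19 (mean log2 signal 4.60, 8.53 and 12.35 in that order) and not with Krt8 or Krt18.

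Secretory luminal cells are the source of kallikreins in the human prostate. Of 5 secretory markers with a probe, Spink1 was detected on all 3 spheroid arrays with a difference of 0.35 that was not called, and Pbsn, Msmb, Sbp and Tgm4 did not pass the filter. The secretory list mean was 4.43 to 4.48 in adherent mouse 1, 4.38 to 4.55 in adherent mouse 2 and 4.43 to 4.82 in spheroids. None of 5 seminal vesicle markers passed. Of 7 fibroblast and smooth muscle markers, Acta2 was lower in spheroids (-3.997, adjusted p = 1.8e-13), while Col1a2 was at -0.05 and not called. Col1a1, Col3a1, Dcn, Lum and Myh11 did not pass the filter. The list mean was 5.32 to 5.59 in spheroids against 5.88 to 6.06 in the adherent cultures, and this lower mean came with Acta2 and not with Col1a2. Leukocyte, mast cell, endothelial and neuroendocrine list means stayed between 4.23 and 4.91 on all 9 replicate arrays, and 0 of their genes were called. The part of Krt19, Krt18 and Acta2 in the kallikrein differences was not tested.

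On each array 43.1% to 49.1% of the probes were detected, and the number of arrays limits the precision of every value. The brightest 10% of the probes began at a raw signal of 416 to 460 on the spheroid replicates and at 504 to 677 on the adherent ones, which moved with the comparison and was not tested as a cause. Log2 values correlated across tested probes, which are not independent replicates, at 0.971 to 0.993 within a culture. The range was 0.969 to 0.979 for adherent mouse 1 with mouse 2 and 0.860 to 0.873 for spheroid with adherent arrays. Over all tested probes 2182 were called higher and 2356 lower in spheroids; with median scaling these were 1403 and 3948.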

How the data were processed

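Per the labels' protocols, total RNA extracted with a miRNeasy kit was turned into biotin-labelled cRNA (MessageAmp kit). Per the file headers, the authors deposited a table of mean bead intensity for 45135 probes on each array, on a linear scale and with no normalization, beside detection p-values for the same probes and arrays. They also deposited normalized intensities of the same arrays; how they were made is not given in the sources used here, and these values entered as an alternative on a log2(value + 16) scale. Its scale, from the values, is linear, and its centring stays unknown. The header of the first table gives 1 name to both remaining arrays of adherent mouse 2, which are therefore unnumbered, and replicate 1 is listed first where the text gives their values.

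Intensities were processed with limma 3.58.1 in R 4.3.3: neqc subtracted the background inferred from the detection p-values, an offset of 16 was added, and quantile normalization covered all 12 arrays. Tested probes (18950) were those detected at p under 0.05 on every replicate array of 1 culture or more. The model held 1 mean for each culture over 9 replicate arrays (lmFit, then eBayes with an intensity trend), with Benjamini-Hochberg adjustment over all tested probes. The pools were normalized but not fitted. A call needed an adjusted p under 0.05 and a 2-fold change. The offset understates differences of dim probes. The fit was tested on simulated data.

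Gene names came from the platform annotation: 34773 probes had 1 symbol, 18 several and 10344 none; 34695 matched RefSeq by Entrez identifier and 0 symbols changed. A listed gene was its brightest passing probe. Every probe of the 8 genes is given; from each list the 4 largest called rises and falls are named, and other listed genes where a sentence accounts for them. Promoter windows are RefSeq's (GRCm38.p6), aligned with Biopython 1.88. The genes and lists were chosen with earlier results of these data known. Alternatives were other background and normalization choices, filters, 1 probe a gene, left-out arrays and a replicate block.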

Additional observations from a re-analysis of the deposited data

How the results depend on the processing

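Dim signal limits these results: most kallikrein probes lay at background in adherent culture, where a signal gives only a bound on the transcript. Over all tested probes the calls numbered 4538 (spheroid against both adherent cultures), 4681 (against mouse 1), 4629 (against mouse 2) and 399 (between the adherent cultures). Without background correction they were 1769, 1852, 1793 and 69, with the authors' normalized values 2054, 2171, 2106 and 85, and with 1 probe a gene, where fewer features were tested, 2684, 2786, 2705 and 249. With an offset of 50 the adherent comparison had 155 calls. Kallikrein probes at least 2-fold higher in spheroids numbered 12, against 5 without background correction, 6 in the authors' table and 7 of 8 with 1 probe a gene. Listed genes called numbered 20, against 12 without background correction. Leaving out 1 array gave 335 to 656 adherent calls, the highest without adherent mouse 2 replicate 1, and 11 to 12 kallikrein probes past 2-fold. Median scaling moved the share of higher among called probes from 48.1% to 26.2% (spheroid) and from 53.1% to 75.6% (mouse 2 against mouse 1). No kallikrein probe was called between the adherent cultures under any of these settings, no called difference of a kallikrein probe or listed gene changed direction, and the cause of these shifts was not tested. Same-numbered arrays of adherent mouse 1 and spheroids deviated from their culture means with correlations of 0.036, -0.021 and 0.046. Such values cannot show whether these arrays share more than a number, which the labels do not say. With the replicate number as a block, 4684 probes were called between them (4681 without the block), and with the authors' values the block gave 2054, 2171, 2106 and 83 calls and 6 kallikrein probes past 2-fold.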
